A study of Homo sapiens with 6 samples.

Results

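The genes that build cholesterol and fatty acids were examined in U87-MG cells, an established human glioblastoma (GBM) line. The list holds 36 genes, chosen by name with earlier results of these data known. It covers enzymes of the mevalonate and sterol pathways and of fatty acid synthesis and desaturation. It also holds regulators of the SREBP transcription factors, and the LXR receptors with some of their targets. All 36 were found among the 61731 genes and loci of the expression table. Of these, 34 reached a mean of 1 TPM over the libraries and were tested, and ABCG1 and MYLIP stayed under that limit. TPM is the share of a library's transcripts that falls to a gene, corrected for the gene's length.

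The series compared 3 libraries of U87-MG cells labelled "CHRM Knockdown" (KD) with 3 libraries labelled "Normal control" (NC, negative control). CHRM3 encodes the M3 muscarinic acetylcholine receptor. According to the methods, the U87-MG cells received a lentivirus carrying a CHRM3 knockdown sequence. The sources do not state which of the 3 listed knockdown sequences these libraries carried or what the control cells received, and they do not say whether separate cultures were used within a group. The p-values therefore measure the spread between these libraries, which may be technical.

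Some facts about the libraries bear on every result. CHRM3 stood at 0.02, 0.09 and 0.13 TPM in NC replicates 1, 2 and 3, and at 0.13, 0.01 and 0.02 TPM in KD replicates 1, 2 and 3. The groups overlapped, and an exact two-sided permutation test gave p = 0.8, where 0.1 is the smallest p that 3 against 3 libraries allow. A reduction of CHRM3 was thus not detectable at this level, which can neither show nor contradict one. The study reports an efficient knockdown of CHRM3 in its U87-MG cells, without tying that measurement to these libraries. KD stands below only for the label. Among the glioma markers, VIM was at 6528 to 6663 TPM in NC and 7244 to 7451 TPM in KD, and CD44 at 577 to 620 TPM and 459 to 482 TPM. NES was low, at 1.98 to 2.54 TPM in NC and 3.23 to 4.01 TPM in KD. By limma VIM (0.17) and NES (0.50) were higher in KD and CD44 (-0.33) was lower. GFAP was at 0.87 to 1.46 TPM over the 6 libraries, and S100B, OLIG2 and SOX2 stayed under 1 TPM. The summed TPM of 6 leukocyte markers was at most 0.62 and that of 3 endothelial markers at most 0.25. The summed TPM of 3 neuronal markers was 9.37 to 10.9 in NC and 14.07 to 14.62 in KD, nearly all of it SNAP25. The mitochondrial share was 5.32% to 5.47% in NC and 4.41% to 4.87% in KD. With mitochondrial transcripts left out, the same 13 members passed the test. The part of the glioma and neuronal markers in the results was not tested. In bulk RNA, fewer cells of a type and less RNA per cell cannot be told apart.

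Cells sense their own sterols at the endoplasmic reticulum. SCAP escorts the SREBP precursors from there to the Golgi, where proteases release the active factors, while INSIG proteins hold SCAP back when sterols are plentiful. SREBF2 encodes the factor that mainly drives cholesterol synthesis, and SREBF1 the one that mainly drives fatty acid synthesis. The LXR receptors, encoded by NR1H2 and NR1H3, respond to oxidised sterols and induce genes of cholesterol export, SREBF1 and SCD. Brain makes its own cholesterol, since plasma lipoproteins hardly cross the blood-brain barrier.

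Promoter sequence was available for 31 of the 36 genes, in 45 windows of 250 bases that end just before a RefSeq gene start (GRCh38.p14). ABCG1, ACAT2, FASN, FDFT1 and SQLE had no window. Below are the windows of the sterol-sensing pair SREBF2 and INSIG1 and of 4 genes with large differences in the libraries. SREBF2 is at chr22:41832855-41833104 (plus strand), INSIG1 at chr7:155297628-155297877 (plus), SCD at chr10:100346983-100347232 (plus), DHCR7 at chr11:71448394-71448643 (minus, 1 of 2 windows), FADS1 at chr11:61817004-61817253 (minus) and NR1H2 at chr19:50376207-50376456 (plus). Each is written 5′ to 3′ along its gene. Capitals mark matches, on either strand, to a sterol regulatory element (TCACNCCAC), an inverted-repeat E-box (TCACGTGA) or a CCAAT box (CCAAT).
SREBF2: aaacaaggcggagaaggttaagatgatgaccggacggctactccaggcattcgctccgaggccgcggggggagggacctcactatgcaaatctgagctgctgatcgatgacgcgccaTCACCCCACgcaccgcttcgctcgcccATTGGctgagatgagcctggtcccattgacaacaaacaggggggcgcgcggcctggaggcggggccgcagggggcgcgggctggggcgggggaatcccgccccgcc
INSIG1: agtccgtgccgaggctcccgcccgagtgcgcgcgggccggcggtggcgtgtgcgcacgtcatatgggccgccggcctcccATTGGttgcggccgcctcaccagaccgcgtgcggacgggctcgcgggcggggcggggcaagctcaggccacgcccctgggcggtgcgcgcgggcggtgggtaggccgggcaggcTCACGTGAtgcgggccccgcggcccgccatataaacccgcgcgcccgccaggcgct
SCD: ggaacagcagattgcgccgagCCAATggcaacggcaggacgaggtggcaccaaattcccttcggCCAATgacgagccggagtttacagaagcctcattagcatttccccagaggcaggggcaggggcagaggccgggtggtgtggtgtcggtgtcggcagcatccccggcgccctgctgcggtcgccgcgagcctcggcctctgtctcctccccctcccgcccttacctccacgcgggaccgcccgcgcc
DHCR7: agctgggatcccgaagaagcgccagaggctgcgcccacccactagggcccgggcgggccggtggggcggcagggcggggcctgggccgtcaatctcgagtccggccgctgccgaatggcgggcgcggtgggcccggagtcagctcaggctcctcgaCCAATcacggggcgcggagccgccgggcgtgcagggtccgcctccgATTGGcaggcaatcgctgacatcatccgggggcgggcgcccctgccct
FADS1: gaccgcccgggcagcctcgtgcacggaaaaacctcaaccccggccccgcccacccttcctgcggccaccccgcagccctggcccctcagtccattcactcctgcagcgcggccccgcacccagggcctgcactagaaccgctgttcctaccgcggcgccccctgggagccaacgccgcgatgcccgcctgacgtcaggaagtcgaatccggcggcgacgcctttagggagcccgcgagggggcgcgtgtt
NR1H2: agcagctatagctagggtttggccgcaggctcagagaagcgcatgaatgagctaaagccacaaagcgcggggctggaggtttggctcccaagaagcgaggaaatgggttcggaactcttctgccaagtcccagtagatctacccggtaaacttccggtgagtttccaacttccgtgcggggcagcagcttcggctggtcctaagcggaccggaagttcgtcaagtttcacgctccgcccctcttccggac

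The sterol regulatory element was found in 1 of the 45 windows, that of SREBF2, 133 bases before the start, against 0.883% of all 35116 RefSeq windows of this length. The E-box was likewise found in 1 window, that of INSIG1, 56 bases before the start, against 0.854% of all windows. CCAAT boxes were frequent: 25 of the 45 windows held one (55.6%, against 32.0% of all windows), from 21 of the 31 genes. SCD carried a pair of them, 229 and 186 bases before its start, and the DHCR7 window shown another pair at 94 and 48 bases. Where a gene had more than 1 window, the one with the most matches to the capitalised motifs was shown. The DHCR7 pair thus belongs to a window picked for its matches. The GC box (GGGCGG, not capitalised above) was in 38 of the 45 windows (84.4%, against 42.6% of all windows). The set of all windows was not matched for gene type or expression, and some of the 31 genes have more than 1 window. These shares thus do not mark a trait particular to the list. The FADS1 and NR1H2 windows held none of the motifs in capitals. Only exact matches within these windows were counted, so elements with other letters or farther from the start would be missed. These matches describe letters in a window, and binding was not measured.

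In the KD libraries, 10 of the 34 tested genes fell and 3 rose. The 10 that fell make up 29.4% of the tested members, beside 24.0% of all 13722 tested genes. The 3 that rose make up 8.82%, beside 12.1% of all genes. Both shares lie near those of all genes, so the counts alone are no result about the list. FADS1, NR1H2, DHCR7 and FDFT1 fell most in log2 fold change, while SCD, PMVK and ACLY rose. Calls came from limma at an adjusted p under 0.05 on log2(TPM + 1), a scale that understates the fold change of low genes.

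The median log2 fold change over the 34 genes was -0.10, beside -0.06 over all tested genes, and the values ran from -0.47 to 0.94. No member reached an absolute log2 fold change of 1 by limma, with or without adjustment of p, whereas 1.87% of all tested genes did so with it. The libraries of the groups did not overlap for 14 members that were lower and 5 that were higher, 41.2% and 14.7% of the tested members, beside 32.8% and 17.4% of all tested genes.

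These counts moved with single libraries and with the scaling. Without NC replicate 3 or without KD replicate 2, 6 members fell, and without KD replicate 3, 5 rose. The counts over all genes moved too. Without NC replicate 3 or KD replicate 2, 2527 and 2727 genes fell, against 3295 with all libraries. Without KD replicate 3, 1374 rose, against 1660. With median-of-ratios scaling the split was 7 lower and 5 higher, and with quantile normalization 7 and 4. The same scalings turned the split of all genes from 3295 lower and 1660 higher into 2250 and 2306, and 2229 and 2233. A core of 9 members passed the threshold in every one of the 17 alternatives run: ACAT2, DHCR7, FADS1, FDFT1, NR1H2 and SCAP lower, and ACLY, PMVK and SCD higher. SC5D, MVD, EBP and FDPS were each lost in 6 or more of them.

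**Figure D1:**
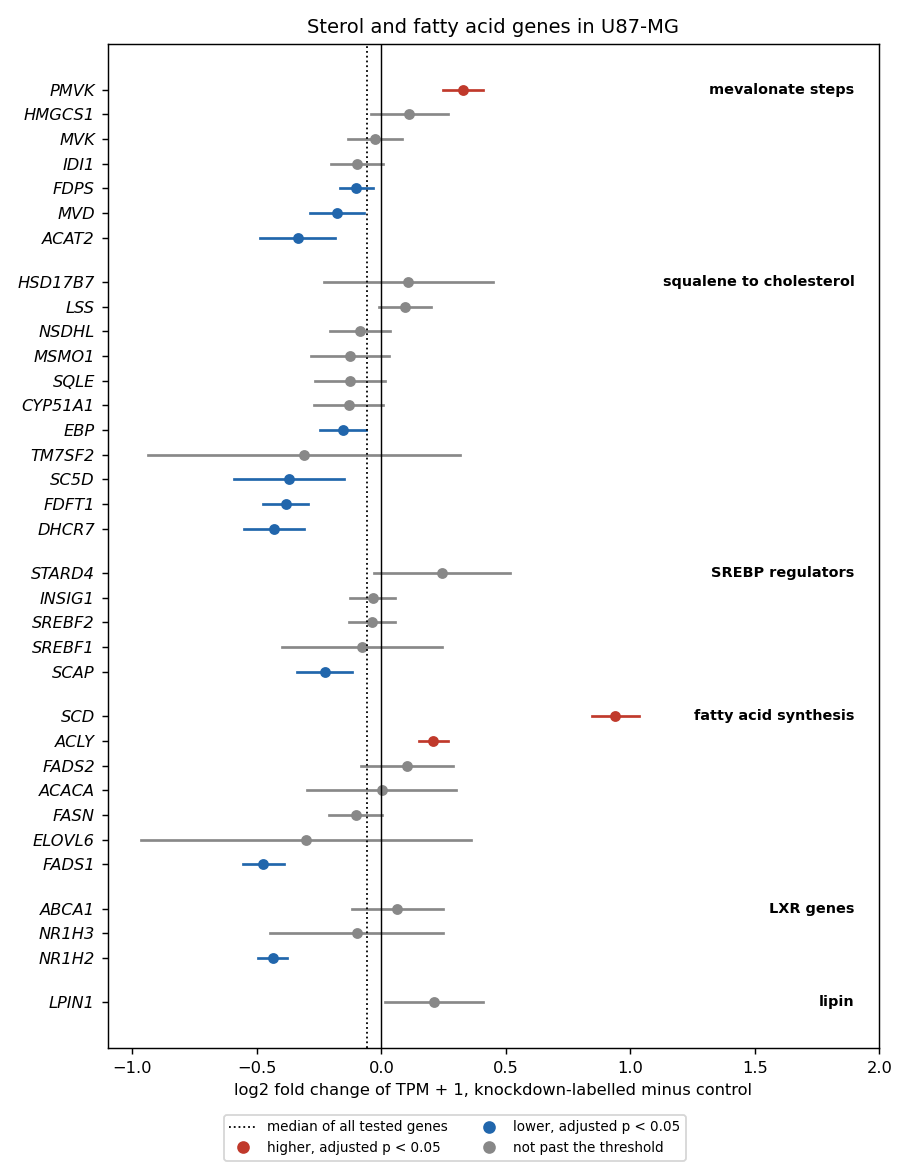
Log2 fold change of TPM + 1 (horizontal axis, knockdown-labelled minus control, 3 libraries each) of the 34 tested genes, ordered within 6 roles, with lines for 95% confidence intervals from limma. SCD at 0.94 stands apart on the right, while FADS1, NR1H2 and DHCR7 lie lowest, between -0.47 and -0.43, and the dotted line marks the median of all tested genes at -0.06.

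**Figure D2:**
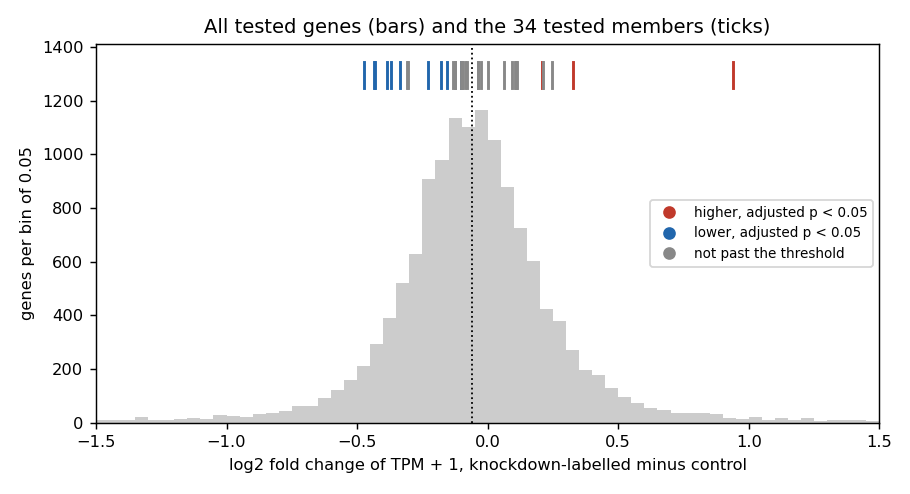
Number of tested genes per bin of 0.05 in log2 fold change (grey bars, 13722 genes, of which 175 lie beyond 1.5 in either direction and are not drawn), with the 34 tested members as ticks above. All ticks but that of SCD (0.94) lie between -0.47 and 0.33.

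The mevalonate steps turn acetyl-CoA into farnesyl diphosphate. Of their 7 members, 3 fell (ACAT2, MVD, FDPS), 1 rose (PMVK) and 3 did not pass. These are 42.9% lower and 14.3% higher, beside 24.0% and 12.1% of all tested genes. The summed TPM of the 7 members was 277 ± 1.01 (SD, n = 3) in NC and 275 ± 4.06 (SD, n = 3) in KD, and the ranges overlapped.

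PMVK adds the second phosphate to mevalonate. Its level was 53.6, 52.9 and 55.5 TPM in NC and 69.4, 65.9 and 68.7 TPM in KD. Every KD library lay above every control. PMVK had a log2 fold change of 0.33 (SE 0.0333, adjusted p = 6.35e-04), a rise of 26.0% in mean TPM.

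ACAT2, the cytosolic thiolase that joins acetyl-CoA units at the entry of the pathway, went the other way. It measured 9.64, 10.95 and 10.92 TPM in NC and 8.17, 8.10 and 8.03 TPM in KD. The latter were nearly equal to each other and all below the lowest control. This corresponds to a log2 fold change of -0.34 (SE 0.0628, adjusted p = 0.00743). ACAT2 shares 397 exonic bases with TCP1 on the opposite strand, a gene with a mean of 361 TPM. On that strand it also shares 1458 exonic bases with SOD2-OT1 (0.03 TPM). A further 1141 are shared with an annotated SOD2 gene, whose identifier had no level listed. The strand setting of the counting is not given in the sources used here, so reads in these stretches cannot be assigned to 1 gene.

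MVD, the decarboxylase that yields isopentenyl diphosphate, fell from 31.2 ± 0.852 to 27.4 ± 1.28 TPM (SD, n = 3), a log2 fold change of -0.18 (adjusted p = 0.0226). FDPS, farnesyl diphosphate synthase, fell from 130 ± 2.74 to 121 ± 2.84 TPM (SD, n = 3), a log2 fold change of -0.10 (adjusted p = 0.0325). Both were apart between the groups, but neither kept its call in all alternatives: MVD lost it in 7 of 17 and FDPS in 10 of 17. The fold change of FDPS was close to the median of all genes.

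The other 3 did not pass. HMGCS1, an early synthase of the pathway, had a log2 fold change of 0.11 (95% CI -0.04 to 0.27, adjusted p = 0.227). MVK, mevalonate kinase, gave -0.02 (95% CI -0.13 to 0.08, adjusted p = 0.705). IDI1, the isomerase of isopentenyl diphosphate, gave -0.10 (95% CI -0.20 to 0.01, adjusted p = 0.127), although its 22.8 to 24.7 TPM in NC did not overlap with 21.4 to 22.4 TPM in KD. The intervals of MVK and PMVK, which act one after the other, did not overlap. MVK shares 306 exonic bases with MMAB on the opposite strand (33.5 TPM).

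The sterol branch leads from farnesyl diphosphate over squalene to cholesterol. Of its 11 members, 4 fell (DHCR7, FDFT1, SC5D, EBP), 0 rose by limma and 7 did not pass. At an unadjusted p under 0.05, the count that rose was also 0. The limma shares are 36.4% lower and 0% higher, beside 24.0% and 12.1% of all tested genes. With 11 genes, these counts alone do not set the branch apart. Its median log2 fold change was -0.13. The summed TPM of the 11 members was 340 ± 1.23 (SD, n = 3) in NC and 297 ± 4.02 (SD, n = 3) in KD. There the highest value of 300.1 lay under the lowest control of 339. The sum weighs abundant genes most, and FDFT1 (69.4 to 52.9 TPM) and EBP (118 to 106 TPM) had its largest falls.

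DHCR7, the reductase of the last step of a main branch to cholesterol, was at 24.07, 22.57 and 24.25 TPM in NC and at 17.5, 17.9 and 16.4 TPM in KD. The groups were well apart, with a gap wider than the range within either group. In the limma fit the log2 fold change was -0.43 (SE 0.0502, adjusted p = 0.00108). The promoter window printed above is 1 of 2 that RefSeq gives for this gene, and which start U87-MG cells use was not tested.

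FDFT1, squalene synthase, commits farnesyl diphosphate to sterols. It stood at 68.5, 72.4 and 67.2 TPM in NC and at 53.1, 54.1 and 51.5 TPM in KD. Again no library crossed over. The fitted log2 fold change was -0.38 (SE 0.0379, adjusted p = 5.61e-04), a mean level lower by 23.8%. FDPS, the enzyme just before it, had a log2 fold change of -0.10 with a 95% CI of -0.17 to -0.03, which does not overlap with that of FDFT1 at -0.48 to -0.29.

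SC5D desaturates the sterol ring shortly before DHCR7 acts. Its values were 6.60, 7.36 and 7.59 TPM in NC and 6.05, 4.95 and 5.02 TPM in KD. KD replicate 1 came close to NC replicate 1. The log2 fold change was -0.37 (SE 0.0923, adjusted p = 0.0222), and the call was lost in 6 of 17 alternatives. EBP, the sterol isomerase, fell from 118 ± 2.31 to 106 ± 5.13 TPM (SD, n = 3), a log2 fold change of -0.15 (adjusted p = 0.0236) that was lost in 9 of 17 alternatives.

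The other 7 did not pass. SQLE, squalene epoxidase and a rate-limiting step, gave -0.13 (95% CI -0.26 to 0.01, adjusted p = 0.138), and its groups did not overlap. CYP51A1, the lanosterol demethylase, also gave -0.13 (95% CI -0.27 to 0.01, adjusted p = 0.121), again with the groups apart. LSS, lanosterol synthase, gave 0.09 (95% CI -0.01 to 0.20, adjusted p = 0.139), with every KD library just above the controls, and passed as a rise with median-of-ratios scaling (0.16) and quantile normalization (0.17).

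These 3 enzymes act in sequence, and their intervals all reached 0. MSMO1 and NSDHL, which remove methyl groups from the ring, gave -0.13 and -0.09, with adjusted p of 0.182 and 0.229. HSD17B7, a ketosteroid reductase of the same steps, gave 0.11 (adjusted p = 0.59). TM7SF2, a sterol reductase, was near the limit of testing at 0.75 to 2.51 TPM and gave -0.31 (95% CI -0.94 to 0.32, adjusted p = 0.397), too wide an interval to read a direction from.

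The SREBP regulators set how much active SREBP a cell makes. Of 5 members, 1 fell (SCAP), 0 rose by limma, also at an unadjusted p under 0.05, and 4 did not pass. The limma shares are 20% lower and 0% higher, beside 24.0% and 12.1% of all tested genes. The median log2 fold change of the 5 was -0.04.

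SCAP, the escort of the SREBP precursors, was at 26.2, 28.3 and 28.3 TPM in NC and at 23.0, 24.3 and 23.0 TPM in KD. The groups did not overlap, and KD replicate 2 was nearest to the controls. This corresponds to a log2 fold change of -0.23 (SE 0.0461, adjusted p = 0.0102), and the call held in every alternative run.

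SREBF2 did not pass the test. It stood at 15.06, 15.19 and 15.05 TPM in NC and 14.79, 14.84 and 14.4 TPM in KD. The 3 controls lay within a narrow band, and the other group lay just under it. In the limma fit the log2 fold change was -0.04 (95% CI -0.13 to 0.05, adjusted p = 0.481), and it turned to 0.03 with median-of-ratios scaling and 0.04 with quantile normalization.

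SREBF1 varied more between libraries, at 13, 13.8 and 17.4 TPM in NC and 13.3, 16.0 and 12.2 TPM in KD. Both groups had 1 high library, and they overlapped over most of their range. The fitted log2 fold change was -0.08 (95% CI -0.40 to 0.24, adjusted p = 0.684). SREBF1 shares 556 exonic bases with RAI1 on the opposite strand (6.93 TPM).

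INSIG1, a sensitive SREBP target as well as a brake on SCAP, was the most abundant of these genes. It measured 99.14, 94.35 and 96.88 TPM in NC and 91.2, 93.2 and 98.9 TPM in KD. The ranges overlapped widely, and the log2 fold change was -0.04 (95% CI -0.13 to 0.06, adjusted p = 0.507). It turned to 0.03 with either scaling. STARD4, a carrier of sterols between membranes, gave 0.24 (95% CI -0.03 to 0.52, adjusted p = 0.144), and passed as a rise only without KD replicate 3, where it was 0.35.

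The genes of fatty acid synthesis moved in both directions. Of 7 members, 2 rose (SCD, ACLY), 1 fell (FADS1) and 4 did not pass, with a median log2 fold change of 0.00. These are 28.6% higher and 14.3% lower, beside 12.1% and 24.0% of all tested genes. The summed TPM of the 7 went from 278 ± 1.80 (SD, n = 3) in NC to 308 ± 8.44 (SD, n = 3) in KD. The ranges of 276 to 279 and 298 to 314 did not overlap. Mean TPM of ACLY went from 146 to 168 and that of SCD from 21.8 to 42.6. The sum follows these 2 genes and does not describe the whole list.

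SCD, stearoyl-CoA desaturase, makes monounsaturated fatty acids. Its level was 22.1, 21.4 and 21.8 TPM in NC and 43.3, 43.8 and 40.8 TPM in KD. The lowest KD library lay far above the highest control, and the controls differed by less than 1 TPM. The log2 fold change was 0.94 (SE 0.0393, 95% CI 0.84 to 1.03, adjusted p = 2.0e-05), the largest among the members and the 198th largest rise of all tested genes. Mean TPM rose by 95.9%. Over the alternatives run, the value stayed between 0.92 and 1.02, and it passed 1 with median-of-ratios scaling (1.01) and with quantile normalization (1.02). Its pseudogene SCDP1 was listed at 0 TPM. SCD lies on chromosome 10 from 100347124 to 100364834 (plus strand, GENCODE on GRCh38).

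ACLY, ATP citrate lyase, supplies cytosolic acetyl-CoA for both pathways. It stood at 145, 144 and 147 TPM in NC and at 167, 173 and 166 TPM in KD. The groups were apart, and ACLY had the highest level per length of all 36 genes in NC. This corresponds to a log2 fold change of 0.21 (SE 0.0238, adjusted p = 0.0010). ACLY shares 156 exonic bases with AC125257.2 on the opposite strand, which was itself listed at a mean of 155 TPM. As the strand setting is not given, reads in this stretch cannot be assigned to either gene alone.

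FADS1, the delta-5 desaturase of polyunsaturated fatty acids, had the lowest log2 fold change of the list. It stood at 30.6, 30.6 and 31.2 TPM in NC and at 22.0, 22.3 and 21.4 TPM in KD. Both groups were tight, and the gap between them was several times wider than either range. In the limma fit the log2 fold change was -0.47 (SE 0.0342, adjusted p = 1.63e-04), and mean TPM fell by 28.9%.

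FADS2, the delta-6 desaturase, is its neighbour on chromosome 11 and is read from the other strand (FADS1 from 61799625 to 61829318, FADS2 from 61792980 to 61867354, GENCODE on GRCh38). Among the RefSeq starts of the promoter windows, those of FADS2 (61816203 and 61816404) lie 800 and 599 bases below that of FADS1 (61817003). Both thus fall within the GENCODE bounds of FADS1, and other starts were not examined. FADS2 was at 12.5, 13.2 and 15.3 TPM in NC and at 15.23, 14.78 and 14.15 TPM in KD. The groups overlapped, and the log2 fold change was 0.10 (95% CI -0.08 to 0.29, adjusted p = 0.34), an interval that does not overlap with the -0.56 to -0.39 of FADS1. The ratio of FADS1 to FADS2 in TPM was 2.27 ± 0.204 (SD, n = 3) in NC and 1.49 ± 0.0357 (SD, n = 3) in KD. The genes share 490 exonic bases on opposite strands, in which reads cannot be told apart without strand.

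The enzymes between ACLY and SCD did not pass. ACACA, acetyl-CoA carboxylase and the committed step, had a log2 fold change of 0.00 (95% CI -0.30 to 0.30, adjusted p = 0.998). FASN, fatty acid synthase, gave -0.10 (95% CI -0.21 to 0.00, adjusted p = 0.119), with 38.9 to 42.9 TPM in NC and 37.3 to 39.1 TPM in KD. ELOVL6, which elongates palmitate to stearate, the substrate of SCD, gave -0.30 (95% CI -0.97 to 0.36, adjusted p = 0.433).

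Relative to its mean, ELOVL6 varied most among the NC libraries after ABCG1, TM7SF2 and MYLIP. Its libraries read 12.7, 19.9 and 10.9 TPM in NC and 16.1, 8.99 and 9.58 TPM in KD, a coefficient of variation of 32.6% and 34.1%. Set against fatty acid synthase, whose product it uses after elongation, SCD shifted. The ratio of SCD to FASN was 0.532 ± 0.022 (SD, n = 3) in NC and 1.12 ± 0.0475 (SD, n = 3) in KD. The ratio of SCD to FADS1 went from 0.706 ± 0.0133 to 1.95 ± 0.0321 (SD, n = 3). These ratios are descriptions and were not tested.

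**Figure D3:**
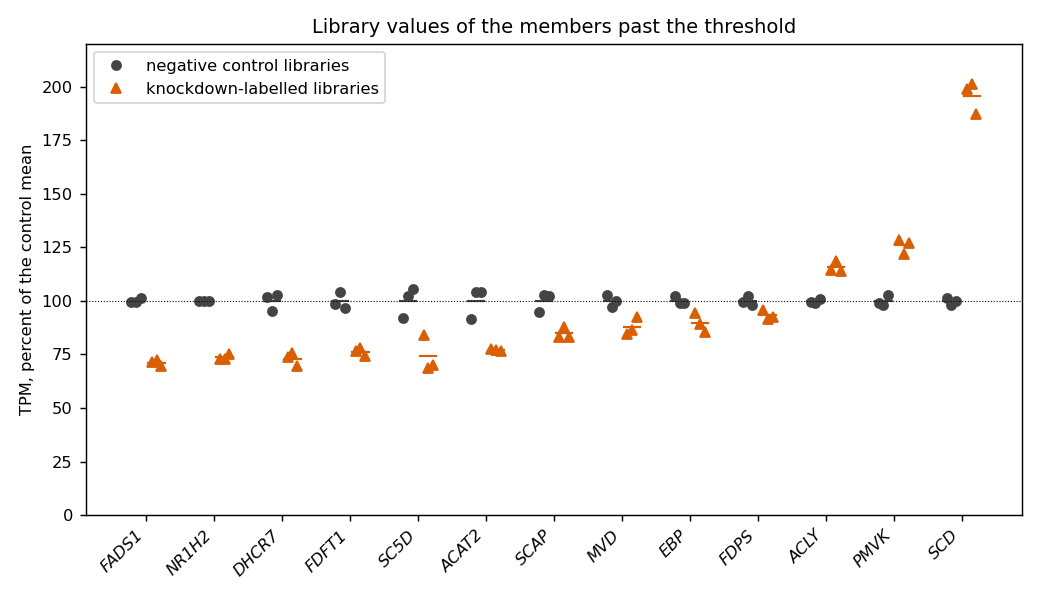
TPM of each library as a percent of the control mean (vertical axis) for the 13 members past the threshold, with circles for the 3 control libraries, triangles for the 3 knockdown-labelled (KD) libraries and short bars for group means. SCD has a mean of 196% in KD, PMVK and ACLY lie above the controls, and the other 10 lie below them, with SC5D showing the widest spread.

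Among the LXR genes, 1 of the 3 tested members fell (NR1H2), and 0 rose by limma, also at an unadjusted p under 0.05. Of all tested genes, 24.0% fell and 12.1% rose, and a share of 3 genes says little beside that. NR1H2 encodes LXR beta, the widely expressed form. It stood at 97.44, 97.7 and 97.55 TPM in NC and at 71.3, 71.0 and 73.2 TPM in KD. The controls were almost identical, and no KD library came near them. The fitted log2 fold change was -0.44 (SE 0.0238, adjusted p = 5.72e-05), and mean TPM fell by 26.4%.

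NR1H3, which encodes LXR alpha, was much lower, at 8.18 to 10.3 TPM in NC and 7.42 to 10.6 TPM in KD. Its log2 fold change was -0.10 (95% CI -0.45 to 0.25, adjusted p = 0.633). ABCA1, the cholesterol exporter and a classic LXR target, gave 0.06 (95% CI -0.12 to 0.25, adjusted p = 0.551), at 19.4 to 21.5 TPM in NC and 19.5 to 23.3 TPM in KD. Both sets of libraries overlapped. The exporter ABCG1 was listed at 0 TPM in 5 of the 6 libraries and at 0.06 TPM in NC replicate 2. MYLIP, a ubiquitin ligase induced by LXR, was at 0.29, 0.13 and 0.25 TPM in NC and at 0.32, 0.24 and 0.17 TPM in KD (exact permutation p = 0.8).

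LPIN1, a phosphatidate phosphatase that also acts in the nucleus, was at 7.67 to 8.29 TPM in NC and 8.39 to 10.4 TPM in KD. The groups just failed to overlap. The log2 fold change was 0.21 (95% CI 0.01 to 0.41) with an adjusted p of 0.0891, which missed the threshold. It passed as a rise without KD replicate 3 (0.29) and with median-of-ratios scaling (0.27).

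To place these genes in the wider lipid pathways, 58 further genes in 6 lists were read from the same fit. Of these, 49 were tested, 21 fell (42.9%, beside 24.0% of all tested genes) and 3 rose (6.12%, beside 12.1%). All 6 lists were drawn up with earlier results of these data known. This share and those of the single lists below are therefore descriptions only. On log2(TPM + 1), 1 of them passed an absolute log2 fold change of 1, GPAM, the mitochondrial acyltransferase that starts glycerolipid synthesis. GPAM was at 33.15, 35.67 and 35.9 TPM in NC and at 14.75, 13.68 and 13.62 TPM in KD. This corresponds to a log2 fold change of -1.26 (SE 0.0509, adjusted p = 1.87e-05), and the groups were far apart. DGAT2, which makes triglycerides, fell by 0.44 on the log2 scale too (adjusted p = 0.0158). In all, 2 of 5 tested genes of glycerolipid synthesis and breakdown fell and 0 rose by limma, also at an unadjusted p under 0.05. The limma shares are 40% lower and 0% higher, beside 24.0% and 12.1% of all tested genes.

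The further fatty acid list spans citrate export, acetyl-CoA supply, carboxylation, activation, elongation and desaturation. Of its 15 tested genes, 9 fell (60%, beside 24.0% of all tested genes) and 1 rose (6.67%, beside 12.1%). The list was drawn up with earlier results of these data known, so its share is a description only. ELOVL7, an elongase, went from 3.88 ± 0.296 to 1.69 ± 0.148 TPM (SD, n = 3), a log2 fold change of -0.86 (adjusted p = 9.89e-04). With a pseudocount of 0.1 in place of 1 it was -1.15. SCD5, the second stearoyl-CoA desaturase of human cells, went from 10.5 ± 0.48 to 7.39 ± 0.492 TPM (SD, n = 3), a log2 fold change of -0.46 (adjusted p = 0.00264). SCD and SCD5 thus moved in opposite directions, and the ratio of SCD to SCD5 was 2.07 ± 0.0657 in NC and 5.77 ± 0.201 in KD (SD, n = 3). The 1 that rose was SLC25A1, the mitochondrial citrate carrier that supplies the substrate of ACLY, with a log2 fold change of 0.39 (adjusted p = 8.00e-04). It was singled out after its value was seen.

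Of 8 further genes of isoprenoid and sterol synthesis, transport and storage, all tested, 4 fell and 0 rose by limma, also at an unadjusted p under 0.05. The limma shares are 50% lower and 0% higher, beside 24.0% and 12.1% of all tested genes. TMEM97, a lysosomal and reticular protein that binds NPC1, fell by 0.53 on the log2 scale (adjusted p = 3.05e-04). NPC1, which exports cholesterol from lysosomes, fell by 0.39 (adjusted p = 3.08e-04), from 114 ± 2.86 to 87.3 ± 2.69 TPM (SD, n = 3). The other 2, SOAT1 (-0.36) and NPC2 (-0.31), were named after their values were seen. NPC2 is the partner of NPC1 in that export, and SOAT1 makes cholesterol esters for storage.

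The machinery that retains, moves and cuts SREBP showed 1 gene that fell and 2 that rose among 7 tested. These are 14.3% and 28.6%, beside 24.0% and 12.1% of all tested genes. MBTPS2, a protease that releases SREBP in the Golgi, gave -0.16 (adjusted p = 0.0369, lost in 11 of 17 alternatives), and SEC23A, a coat protein of the vesicles that carry SCAP, gave 0.18 (adjusted p = 0.0136). The second that rose was SEC24D of the same coat (0.13, lost in 2 of 17 alternatives), named after its value was seen. INSIG2, the second INSIG gene, gave 0.46 (95% CI 0.10 to 0.81) with an adjusted p of 0.0528, just short of the threshold, at 4.66 to 6.75 TPM in NC and 6.66 to 8.93 TPM in KD. It was likewise singled out after its value was seen.

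The further LXR list holds partners and targets of the receptors and genes of oxysterol synthesis, and the latter (CH25H, CYP27A1, CYP7B1) stayed under the limit for testing. Of the 5 tested partners and targets, 1 fell (20%, beside 24.0% of all tested genes). It was RXRB, which encodes a retinoid receptor that pairs with LXR. Its log2 fold change was -0.44 (adjusted p = 0.00534). RXRA, the other RXR gene on the list, gave -0.07 (adjusted p = 0.403). In fatty acid oxidation and its PPAR receptors, 4 of 9 tested genes fell and 0 rose by limma, and 1 (ACADVL) was higher at an unadjusted p under 0.05. The limma shares are 44.4% lower and 0% higher, beside 24.0% and 12.1% of all tested genes. CPT1A, the gatekeeper of mitochondrial oxidation, fell by 0.44 on the log2 scale (adjusted p = 5.11e-04), from 54.6 ± 1.57 to 40.1 ± 1.74 TPM (SD, n = 3). PPARD, a nuclear receptor for fatty acids, fell by 0.20 (adjusted p = 0.0332), a call lost in 9 of 17 alternatives. HADHA (-0.10) and HADHB (-0.16) also fell, with calls lost in 9 and 6 of 17, and were named after their values were seen. The median log2 fold change of this list was 0.01.

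**Figure D4:**
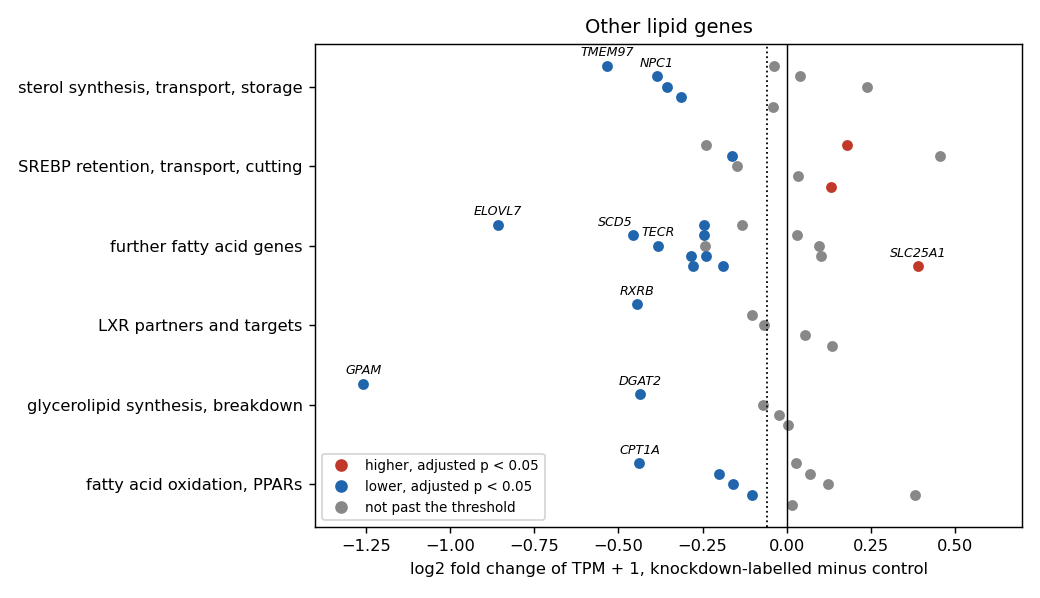
Log2 fold change of TPM + 1 (horizontal axis, knockdown-labelled minus control) of the 49 tested genes of 6 further lipid lists, 1 point per gene, with the dotted line at the median of all tested genes. GPAM at -1.26 and ELOVL7 at -0.86 lie farthest to the left, and the points that passed as higher are 3, with SLC25A1 at 0.39 the largest of them.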

How the data were processed

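RNA of 6 U87-MG libraries (3 NC, 3 KD) was sequenced. The authors deposited 1 table of TPM with 2 decimals, 61731 rows (190 with MSTRG names) by 6 libraries. The submitters' processing notes name fastp, RSEM and the build GRCh38.p13, without roles or versions. The aligner, annotation and strand setting are not given in the sources used here. The study's methods name TRIzol and a TruSeq kit, whereas the sample labels name RNeasy and SMARTer kits. TPM is a share of a library and keeps no depth, so depth is unknown and no counting error is given.

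Groups came from the sample titles. The fit used limma 3.58.1 (R 4.3.3) on log2(TPM + 1), by lmFit and eBayes with trend, and a group term alone. Genes under a mean of 1 TPM were left out. Benjamini-Hochberg adjustment ran over the 13722 genes tested. All adjusted p-values come from limma. The procedure was also run on simulated data with independent noise and far fewer changed genes than were called here. That simpler setting does not test the calls made here. Alternatives varied the pseudocount (0.1, 0.5), the limit on low values (none, 0.1, 5 TPM), the scaling, the trend, a replicate block, the gene types and each library left out. The study's methods name no test for the transcriptome, and a two-tailed t-test for comparisons between groups in general.

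All 36 members were named, with library values for those past the test that differed by 0.3 or more in log2, and for SREBF1, SREBF2, SCAP and INSIG1. From each further list the 2 genes with the largest change past the test were named. Members and lists were chosen with earlier results of these data known. Symbols came from the table of gene names (61369 of 61541 Ensembl identifiers), exon overlaps from GENCODE on GRCh38, and promoter windows from RefSeq (GRCh38.p14).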

Additional observations from a re-analysis of the deposited data

How the results depend on the processing

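Results of 51 genes were recomputed under 17 alternatives. Of 864 values, 776 kept direction and side of the threshold, 69 lost a call, 5 gained one and 14 changed sign. Leaving out each library in turn gave 6 to 9 members lower, 3 to 5 higher, and a median over the members of -0.105 to -0.0734. Over all genes it gave 2519 to 2746 lower and 1331 to 1464 higher, against 3295 and 1660 with all libraries. Median-of-ratios scaling gave 5 members higher, 1 member (SCD) past an absolute log2 fold change of 1, 6 genes higher in the further lists and a member median of -0.0313. Quantile normalization gave 1 (SCD), 6 and -0.0165 for the last 3 of these. Both moved the median of all tested genes from -0.06 to 0.00, and the further lists from 21 lower and 3 higher to 16 and 6. Signs changed only in members that had not passed the test: MVK (0.0398 and 0.0497), SREBF2 (0.0271 and 0.0372) and INSIG1 (0.0339 and 0.0337) with median-of-ratios and quantile scaling, and ACACA without mitochondrial transcripts (-0.0109). With single libraries left out, log2 fold changes ran from -0.0031 to 0.224 for HSD17B7, from -0.0065 to 0.116 for ABCA1, from -0.0786 to 0.12 for ACACA and from -0.181 to 0.0397 for SREBF1. The cause was not tested.

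The replicate block left 7 members lower and 3 higher, losing SC5D, FDPS and MVD, beside 2638 and 1369 of all genes. Deviations of NC and KD libraries with the same number correlated at -0.02, 0.03 and 0.03, and those with different numbers at -0.07 to 0.03. No shared deviation of same-numbered libraries was seen. With 3 libraries a group, this cannot tell whether they were prepared together. With 3 libraries a group and no depth, changes under the spread of genes such as ELOVL6 and TM7SF2 could not be resolved.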
